A study of Saccharomyces cerevisiae with 6 samples.

Results

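YRA1, the gene mutated in this study, and its paralog YRA2 were followed across 6 two-colour spotted arrays of budding yeast (Saccharomyces cerevisiae). Each array set total RNA of the temperature-sensitive yra1-1 mutant, taken at 37 °C, against total RNA of a Yra1 wild-type strain at 37 °C, with no common reference. By the labels, channel 1 held the mutant RNA on arrays 1, 4 and 6, whereas arrays 2, 3 and 5 carried it in channel 2. The members are all features whose gene symbol in the platform annotation is YRA1 or YRA2: feature 737 for YRA1 and features 3706 and 4899 for YRA2, which makes 3 of 7680 features and 2 of 5583 named genes. All 3 had a value on all 6 arrays. The sources used here give neither the rest of the strains' genotypes, nor the time spent at 37 °C, nor the number of cultures. The p-values therefore measure only how far these 6 hybridisations scatter, and that scatter may be technical. On array 1 the mutant is written with a prefix, mex, that the labels leave unexplained.

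Yra1 (locus YDR381W, chromosome IV) is an essential RNA-binding adaptor of the REF family, to which human ALYREF belongs. It is brought to nascent mRNA with the help of the DEAD-box protein Sub2 and the THO complex, and it hands the mRNA to the export receptor Mex67-Mtr2. The gene holds an unusual intron through which the Yra1 protein limits its own synthesis: when splicing is inefficient, unspliced YRA1 RNA leaves the nucleus and is degraded in the cytoplasm with the help of the decapping activator Edc3. Yra2 (YKL214C, chromosome XI) is a dispensable relative that also binds RNA and Mex67 and can replace Yra1 when overproduced. Which stretch of each gene was spotted is not stated in the sources used here, so spliced and unspliced RNA could not be told apart. Because yra1-1 is a temperature-sensitive allele, its RNA need not be lost, and the YRA1 value checks no label.

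The deposited values are log10 ratios whose numerator is not stated. The array medians ran from −1.18 to 1.24 (log10), so values were converted to log2 and centred on each array's median. Every result has 2 readings: the columns as deposited, and the columns turned by the labelled channel (sign kept where the mutant is in channel 1 and reversed where it is in channel 2). The turned reading is yra1-1 over wild type where channel 1 is the numerator and wild type over yra1-1 where channel 2 is. Had the authors already turned the columns, it would hold a dye effect. Neither direction is settled, and results are given as positive or negative.

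YRA1 lay at least 0.9982 log2 from the array median on every array, while the YRA2 features lay at most 1.2425 from it. As deposited and centred, arrays 1 to 6 gave YRA1 log2 ratios of −1.39, 3.07, 1.64, 1.21, 3.49 and 1.00. Array 1 alone was negative, and arrays 2 and 5 were the highest. Counted from the lowest value, YRA1 stood at percentiles 6.30, 96.8, 86.4 and 86.3 on arrays 1, 3, 4 and 6. Counted from the highest, it ranked 29 of 7670 features on array 2 and 75 of 7656 on array 5. Its smallest distance from the median was that of array 6, and 69 of 7592 features with 6 values (0.909%) were at least that far from the median on all 6 arrays. That cutoff was set by YRA1 itself, which is 1 of the 69.

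The first YRA2 feature, 3706, had centred log2 ratios of −0.84, 0.18, 0.65, 0.05, −0.44 and 0.69 in array order, as deposited. The other YRA2 feature, 4899, lay at −1.16, 0.48, 1.24, 0.36, −1.15 and 0.98. Both features were negative on arrays 1 and 5 and positive on the other 4. Array 5 thus separated the paralogs most, with YRA1 high and both YRA2 features below the array median.

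**Figure D1:**
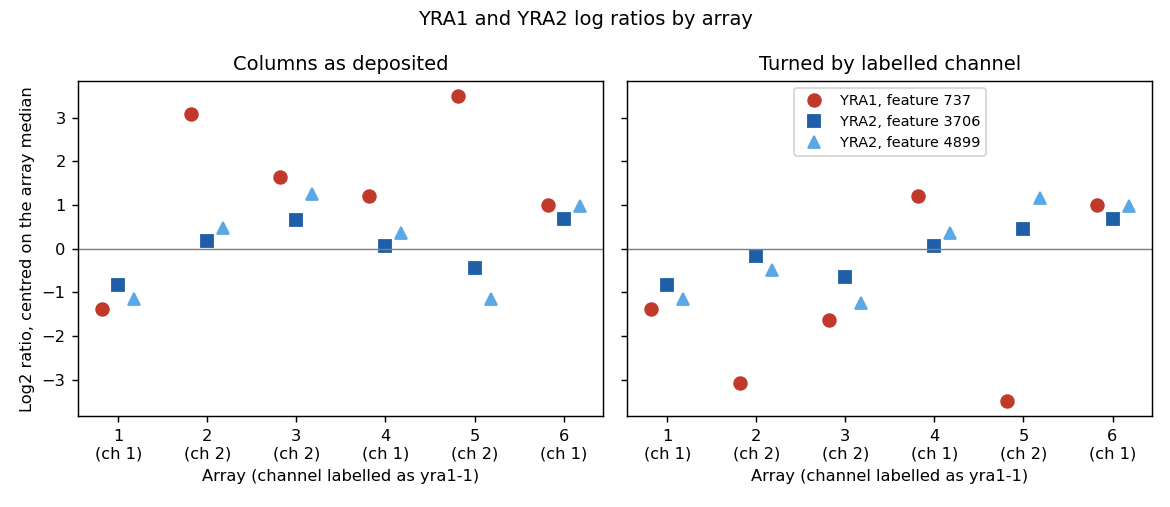
Centred log2 ratio (y axis) of the YRA1 feature and both YRA2 features on each of the 6 arrays (x axis, with the channel labelled as yra1-1), as deposited on the left and turned by the labelled channel on the right. Each point is 1 feature on 1 array. YRA1 is positive on 5 arrays as deposited and negative on 4 when turned, and the YRA2 points run from −1.2425 to 1.2425.

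Over the arrays, YRA1 averaged 1.50 ± 1.74 log2 as deposited (SD, n = 6), with 5 arrays positive and 1 negative. At least 5 positive arrays were seen for 1077 features (14.2%), and the exact signs of YRA1 on each array for 175 (2.31%). The limma shift of 1.50 ± 0.42 (SE, 95% interval 0.59 to 2.42) had an adjusted p of 0.107 over all features and did not pass. In this reading 127 of 7680 features (1.65%) passed, of which 44 (0.573%) were positive and 83 (1.08%) negative. An unadjusted p under 0.05 was seen for 1034 (13.5%), and YRA1 ranked 274 by p. YRA1 passed when values that equal a ratio of small whole numbers were left out, with a shift of 1.96 and a limma adjusted p of 0.0319. In that fit 170 of 6439 features passed. Leaving such ratios out removes the YRA1 value on array 1, which equals log10 of 25/243 to the last of 9 decimals and is the only YRA1 value of this kind. Without array 1 as a whole the shift was 1.92, with a limma adjusted p of 0.0661.

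Turned by the labelled channel, YRA1 averaged −1.23 ± 1.98 (SD, n = 6). The turned values were −1.39, −3.07, −1.64, 1.21, −3.49 and 1.00 on arrays 1 to 6. Arrays 4 and 6 were positive and the other 4 negative, and 34.9% of all features were negative on at least 4 arrays. The limma shift of −1.23 ± 0.42 (SE, 95% interval −2.14 to −0.32) had an adjusted p of 0.280, in a reading where 1 of 7680 features passed (0.013%) and 998 (13%) had an unadjusted p under 0.05. Without array 1 the shift was −0.82.

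The same contrast can be read from the deposited signs. YRA1 averaged 0.27 ± 1.44 on the arrays with the mutant in channel 1 and 2.73 ± 0.97 on those with the mutant in channel 2 (centred log2, SD, n = 3 each). All 3 channel 1 arrays, at −1.39, 1.21 and 1.00, lay below all 3 channel 2 arrays, at 3.07, 1.64 and 3.49, so the assignments did not overlap. This was the case for 691 of 7592 features (9.1%) in the same direction.

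YRA2 did not pass in either reading. As deposited the limma shift was 0.05 ± 0.33 for feature 3706 (SE, 95% interval −0.68 to 0.78, adjusted p = 0.977) and 0.12 ± 0.41 for feature 4899 (95% interval −0.76 to 1.01, adjusted p = 0.952). When turned it was −0.08 ± 0.33 for feature 3706 (95% interval −0.81 to 0.65, limma adjusted p = 0.962) and −0.07 ± 0.41 for feature 4899 (95% interval −0.95 to 0.82, limma adjusted p = 0.977). Each of the turned YRA2 features had 3 positive and 3 negative arrays. The intervals reach at least 0.65 log2 on either side of 0, so shifts of YRA2 up to that size lie within them in both directions.

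The difference between the paralogs was tested on the log ratios of the same hybridisations, with both YRA2 features averaged. YRA1 minus YRA2 averaged 1.42 ± 1.76 log2 as deposited (SD, n = 6, 5 arrays positive), and an exact two-sided sign-flip permutation test gave p = 0.0938 (0.188 adjusted over both readings). Turned by the labels it averaged −1.16 ± 1.98 (SD, n = 6, 4 arrays negative, exact permutation p = 0.281). The smallest p that 6 arrays allow is 0.0313. It needs all signs alike, and signs alike in one reading are mixed in the other, so both readings cannot reach it. The p adjusted over both readings could therefore not fall below 0.0625, and this test could not pass at 0.05. The YRA1 value lay above the YRA2 mean on arrays 2 to 6 as deposited, by 0.16 on array 6 and by as much as 4.28 on array 5. On array 1 it lay below that mean by 0.39. Whether the paralogs differ is not decided by this test.

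**Figure D2:**
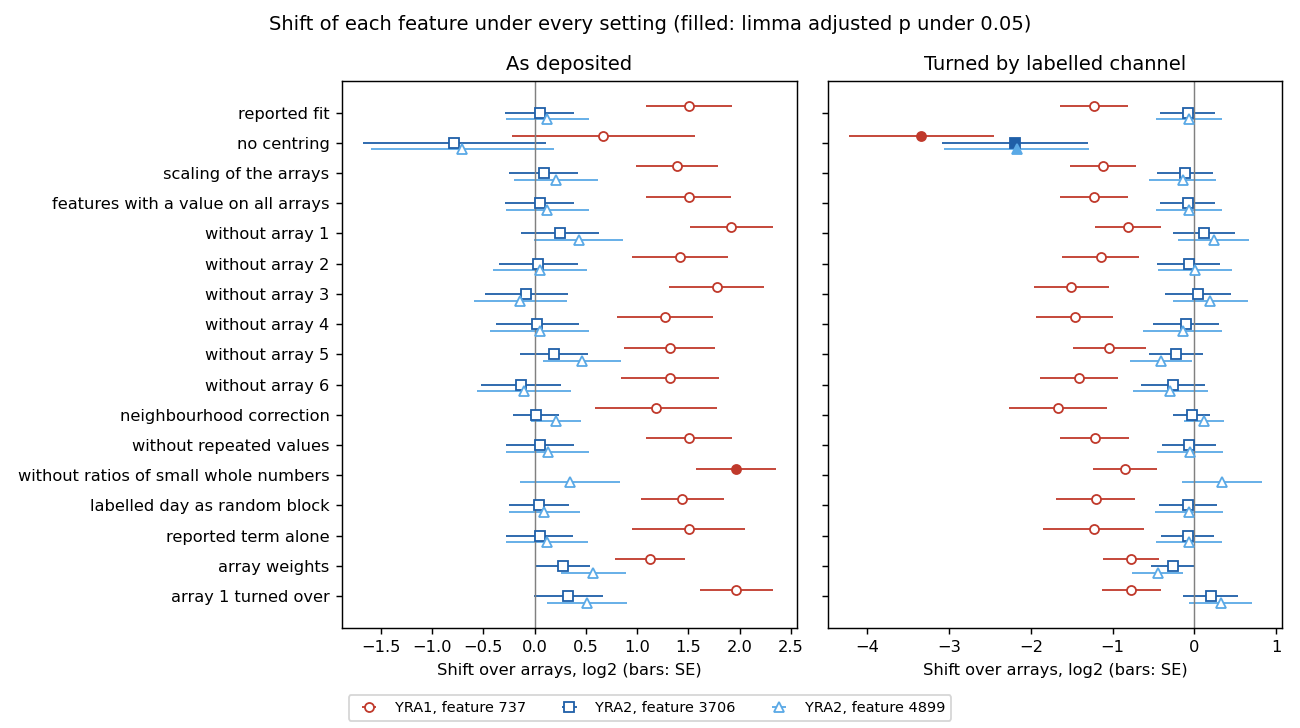
Shift over the arrays (x axis, log2, bars are SE) of YRA1 and both YRA2 features for the reported fit and each alternative setting (rows), as deposited on the left and turned by the labelled channel on the right. Filled symbols have a limma adjusted p under 0.05. YRA1 has a positive shift on the left and a negative shift on the right in every row, and the YRA2 features change side between rows and are filled only when turned without centring.

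The 2 readings of YRA1 were also set out by a number code in the array titles, read here as a day. The titles do not say what the code stands for. Arrays 5 and 6 share the first such day and arrays 1 and 3 the fourth, with opposite channel assignments of the mutant in each pair. Arrays 1 and 3 also carry 1 slide number in their titles, with the letters a and b, so these 2 of the 6 arrays may share a slide. Within the first day the turned YRA1 values were −3.49 and 1.00 (mean −1.24), and within the fourth they were −1.39 and −1.64 (mean −1.51). As deposited the means were 2.24 within the first day and 0.13 within the fourth. The turned YRA2 features were positive on both arrays of the first day, with means of 0.56 and 1.07, and negative on both arrays of the fourth, with means of −0.74 and −1.20. With the day as a random block the limma adjusted p of YRA1 was 0.0771 as deposited and 0.445 when turned. The SE was then 0.40 and 0.48, against 0.42 for both in the reported fit. Only these 2 pairs of arrays share a day, and the correlation within days is not given here. The lower p as deposited is therefore not read as an allowance for the day.

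Before centring, YRA1 lay on the same side on all 6 arrays once turned by the label. Its deposited log10 ratio, turned, was −0.99, −0.97, −1.73, −0.81, −0.92 and −0.61 on arrays 1 to 6, a mean of −1.01 ± 0.38 (SD, n = 6). These values still hold the offset of each array, and the turned means of all features had a median of −0.62. On arrays 4 and 6 the deposited array medians were −1.18 and −0.91 (log10), and YRA1 lay above them, at 1.21 and 1.00 log2 once centred. Its negative sign there is thus that of the array median. The spread of the uncentred YRA1 values was small: an SD of 0.38 stood at percentile 1.55 of 7592 features, whose median SD was 0.64. Feature 3706 of YRA2 gave −0.66 ± 0.64 and feature 4899 gave −0.65 ± 0.73 (log10, SD, n = 6), each with array 5 positive. All 6 turned values were negative for 1435 features (18.9%) and all positive for 0. In the limma fit without centring YRA1 stood at −3.34 ± 0.89 log2 (SE, adjusted p = 0.0164), against a median of −2.07 over all features, and ranked 79 of 7680 by p. Both YRA2 features had the same SE of 0.89 in that fit, a spread shared over features. The SE and p of YRA1 there do not reflect its own scatter over the arrays. In that fit 4886 features passed on the negative side, both YRA2 features among them (−2.19 and −2.17, limma adjusted p = 0.0360 and 0.0363).

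YRA1 stood apart from the features around it by identifier and YRA2 did not. Identifiers were taken as a stand-in for the position on the slide, since no spot coordinates were used here. The 8 features that lie 1, 2, 20 or 21 identifiers away on either side served as the neighbourhood. The nearest are ATP17, a subunit of the ATP synthase, and XRS2 on one side of YRA1, and SAC7 and NCB2 on the other. All 8 neighbours of YRA1 are genes of chromosome IV like YRA1 itself. Their median was 1.84, −0.16, 0.49, 0.10, −0.69 and 0.35 on arrays 1 to 6 (centred log2, as deposited). YRA1 minus that median was −3.22, 3.23, 1.15, 1.11, 4.18 and 0.65, so YRA1 was below its neighbourhood on array 1 and above it on the other 5. At least 5 positive arrays after this subtraction were seen for 1118 of 7592 features (14.7%).

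On every array YRA1 lay beyond all 8 neighbours, above them on 5 arrays and below them on array 1. Each YRA2 feature lay within the range of its 8 neighbours on all 6 arrays. Only 8 of 7202 features with complete neighbourhoods (0.111%) lay beyond all 8 neighbours on all 6 arrays, a measure chosen after the YRA1 values were seen. Besides YRA1, these were the tryptophan synthesis gene TRP1, the uracil synthesis gene URA3, the small heat shock gene HSP26, the glutaredoxin gene GRX1, YER137C and 2 features without a gene name, named here after their values were seen. Among them, TRP1, HSP26, GRX1 and, turned over, URA3 had the sign split of YRA1, with array 1 on the other side of 0 from arrays 2 to 6. Over all features that split, in either direction, was seen in 337 of 7592 (4.44%), YRA1 included. Because the measure that picked these features was itself chosen on YRA1, this is a description only.

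**Figure D3:**
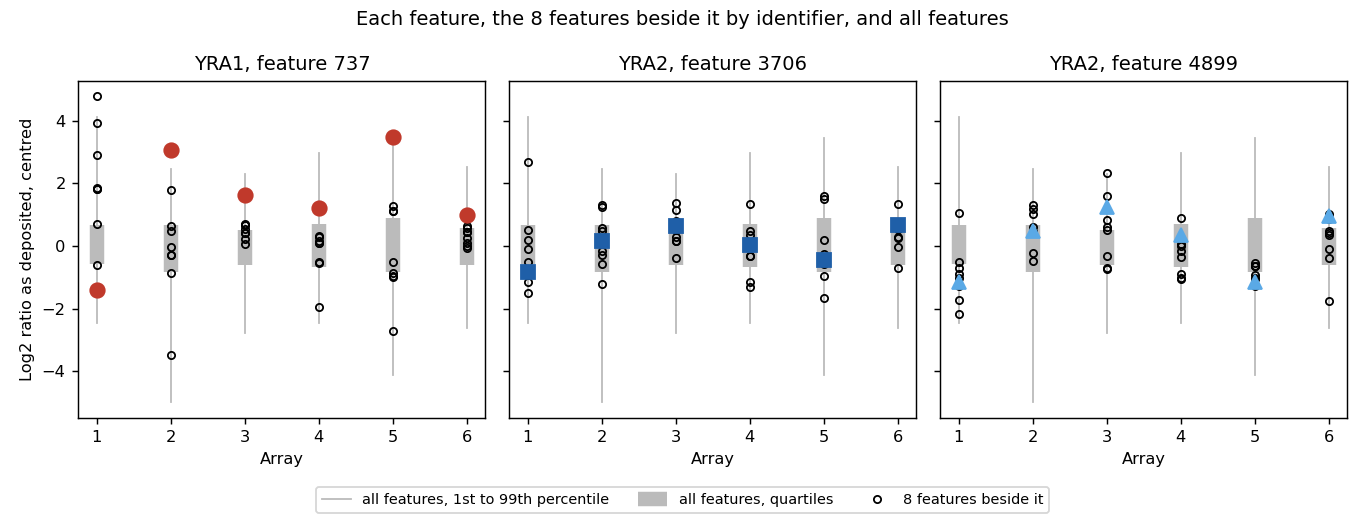
Centred log2 ratio as deposited (y axis) of the YRA1 feature (left), and of YRA2 features 3706 (middle) and 4899 (right), on arrays 1 to 6 (x axis). Open circles are the 8 features beside it by identifier, grey bars the quartiles and grey lines the 1st to 99th percentile of all features. The YRA1 symbol lies outside its 8 neighbours on all 6 arrays, and both YRA2 features lie among theirs.

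With the neighbourhood median subtracted from every feature, the YRA1 shift was 1.18 ± 0.60 log2 as deposited (limma adjusted p = 0.450) and −1.67 ± 0.60 when turned (adjusted p = 0.528, SE). The shift of feature 3706 of YRA2 was 0.01 as deposited and −0.03 when turned, and that of feature 4899 was 0.21 and 0.12.

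The 2 YRA2 features repeated each other well. They had the same sign on all 6 arrays, as did 118 of 1094 genes with 2 features (10.8%), and differed by a mean of 0.42 log2, against a median of 0.78 for those 1094 genes, each with exactly 2 features and values on all 6 arrays. The uncentred correlation, a cosine over the 6 arrays that is the same whichever way an array is turned, was 0.963 between them, at percentile 97.3 of those genes, whose median was 0.368. The features lie 1193 identifiers apart, but 6 of the 8 genes beside feature 3706 are also beside feature 4899, so they share their surroundings as well as their gene. The medians of the neighbours, −0.30, 0.17, 0.41, −0.16, −0.31 and 0.42 around feature 3706 and −0.95, 0.53, 0.57, −0.26, −0.78 and 0.39 around feature 4899, had the signs of YRA2 itself on 5 of 6 arrays. Array 4 was the exception at both positions. How much of the YRA2 pattern belongs to the slide position was not tested.

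Several of the members' values equal ratios of whole numbers. On array 1 the deposited value of feature 3706 equals log10 of 214/1425 and that of feature 4899 log10 of 117/973, on array 2 they equal 52/41 and 878/561, and on array 3 feature 3706 equals 12719/470. These are the smallest whole numbers that give the value to 9 decimals, and the channel signals may be multiples of them. How many values would match such a ratio by coincidence is not given here, so a single match need not be a ratio of signals. Of all values, 36.8% on array 1 and 33.2% on array 2 were of this kind, against 5.83% to 14.0% on arrays 3 to 6. Signal over background is unknown, since no scanner intensities were used here.

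The genes most alike to YRA1 over the 6 arrays were taken by the same cosine, among 6206 named features with a root mean square log2 ratio of at least 0.5. They were TMH11 (0.987), the spore wall gene SPS22 (0.973), SUI1, which encodes translation initiation factor eIF1 (0.969), the cell wall protein gene NCW2 (0.969) and CHA1, the catabolic serine and threonine deaminase (0.969). All 5 were negative on array 1 and positive on the other 5. The size of the swing differed: SUI1 ran from −0.26 on array 1 to 0.94 on array 2, and CHA1 from −1.46 to 2.96 on the same arrays. The most opposed were PLM2 (−0.973) and the tRNA dihydrouridine synthase gene DUS4 (−0.972). These cosines are a description over 6 points, taken from many candidates.

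Genes often used to mark laboratory yeast strains ranged widely in likeness to YRA1. Which markers these strains carry is not stated in the labels. The cosine with YRA1 was 0.896 for TRP1, at percentile 99.2 of the named features, and −0.773 for URA3, at percentile 4.71. The other 6 markers lay at 0.794 (LYS2), 0.747 (HIS3), 0.388 (CAN1), 0.007 (LEU2), −0.138 (MET17) and −0.165 (ADE2). The TRP1 values were −3.48, 3.84, 3.45, 4.16, 3.22 and 2.76 and the URA3 values 3.19, −3.46, −3.01, −5.92, −2.21 and −4.25 in array order, so both were farther from the array median than YRA1 on every array but array 5. The cosine of YRA1 with YRA2 was 0.275 for feature 3706 and 0.199 for feature 4899, at percentiles 66.6 and 61.5. TRP1 was named for its likeness to YRA1, so its higher cosine follows from that choice and is no measure of how alike the paralogs are.

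**Figure D4:**
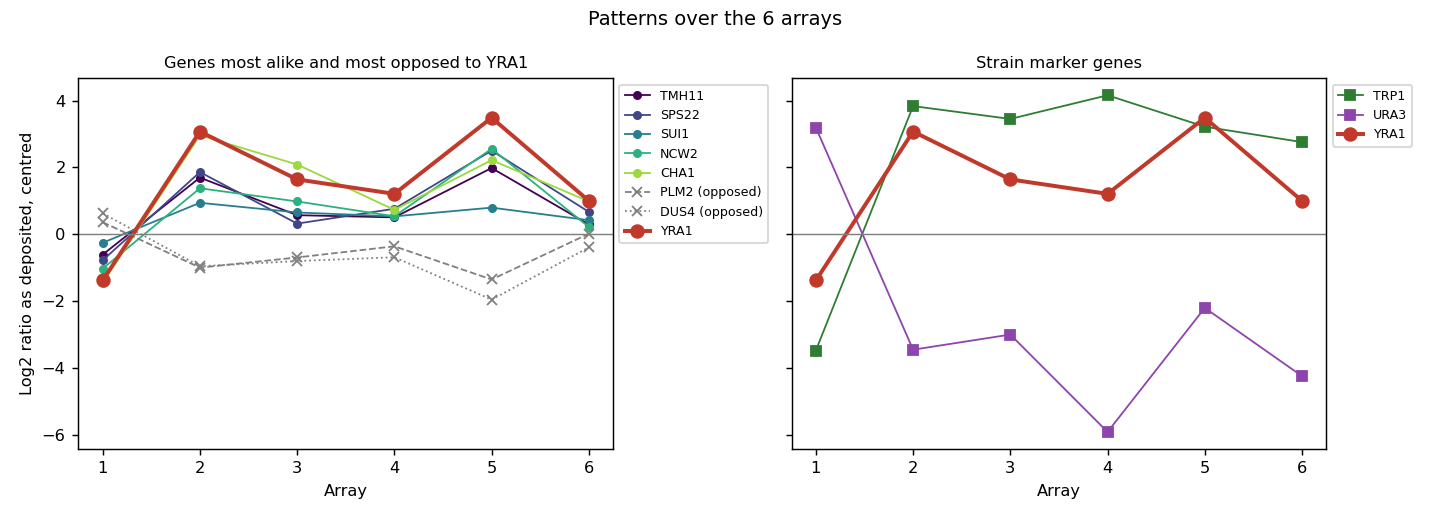
Centred log2 ratio as deposited (y axis) on arrays 1 to 6 (x axis) for YRA1 with the 5 genes most alike and the 2 most opposed to it (left) and with the marker genes TRP1 and URA3 (right). Each point is 1 feature on 1 array, and lines join the values of a gene and imply no order of arrays. YRA1 and TRP1 are negative on array 1 and positive on the others, and URA3 is the reverse.

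The genes most alike to YRA2 depended on the feature. For feature 3706 they were the Golgi complex gene COG7 (0.975), the TFIIH kinase gene KIN28 (0.974), NSE1 (0.971), the Golgi ubiquitin ligase gene TUL1 (0.964) and ARH1 (0.960), with ERR3 (−0.983) and the acetate transporter gene ADY2 (−0.957) most opposed. For feature 4899 they were VAB2 (0.985), ARP6 (0.980), the PCNA gene POL30 (0.974), the mitochondrial ribosomal protein gene MRPL7 (0.971) and the excision repair gene RAD7 (0.971), with CUE2 (−0.985) and THI20 (−0.957) most opposed. The 2 lists of 5 had 0 genes in common.

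The genes that work with Yra1 were counted against all features. The lists held 26 genes with 32 features: the export receptor and adaptors, the THO complex with Sub2, other partners of the Yra1 protein, and factors of YRA1 pre-mRNA exit and decay. As deposited 0 of 32 features passed in limma, against 1.65% of all features, and 3 had an unadjusted p under 0.05, against 13.5%. When turned 0 of 32 passed in limma, against 0.013% of all features, and 7 had an unadjusted p under 0.05, against 13%. With background shares this low, 0 of 32 is not a result about these genes. The median shift was 0.15 log2 as deposited, against 0.02 over all features, and 0.14 when turned, against 0.04.

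Among receptor and adaptors, PAB1, the poly(A)-binding protein, had the smallest p when turned, at −1.75 ± 0.38 log2 (SE, 6 of 6 arrays negative, limma adjusted p = 0.180). NPL3, a shuttling mRNA-binding protein, followed at −0.80 ± 0.35 (6 of 6 negative, limma adjusted p = 0.361), and MEX67, the receptor that takes over mRNA from Yra1 and is added here for its link to Yra1, stood at −0.83 ± 0.44 (4 of 6 negative, adjusted p = 0.471). The share of all features with 6 of 6 centred, turned values of the same sign is not given here. Such counts, here and for the lists below, are therefore not a result about genes picked by their p. As deposited the smallest p belonged to NAB2, a poly(A)-RNA-binding protein (−0.97, limma adjusted p = 0.197), and to a feature of MTR2, the partner of Mex67 (−0.68, adjusted p = 0.577). The cosine with YRA1 differed among the 7 features of this list. It was 0.896 for MEX67 and 0.836 for NPL3, 0.398 for PAB1, 0.268 and −0.609 for the features of MTR2, and −0.230 and −0.590 for those of NAB2.

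In the THO complex the largest subunit THO2 stood at 1.03 when turned (6 of 6 arrays positive, limma adjusted p = 0.383), and the helicase gene SUB2 at −0.73 (5 of 6 negative, adjusted p = 0.413). As deposited a feature of MFT1 (0.40) and THO2 (0.48) had the smallest p in that list, with limma adjusted p of 0.749 and 0.773. Of other partners, the 3′ end processing factor PCF11, which binds Yra1, was at −1.22 (6 of 6 negative, limma adjusted p = 0.251) and CBC2, the small cap-binding subunit, at 1.74 (6 of 6 positive, adjusted p = 0.266) when turned. As deposited both features of MLP1, a nuclear basket protein, led that list on opposite sides, at −1.12 and 0.97 (limma adjusted p = 0.178 and 0.249).

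For the fate of unspliced YRA1 RNA, the decapping enzyme gene DCP2 was at 1.42 (6 of 6 positive, limma adjusted p = 0.304) and its partner DCP1 at 0.55 (adjusted p = 0.650) when turned. As deposited EDC3 and DCP2 had the smallest p, at −0.35 each (limma adjusted p = 0.749 and 0.877). The turned shift of EDC3, the activator tied to YRA1 pre-mRNA decay, was −0.31 with 5 of 6 arrays negative (adjusted p = 0.774).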

How the data were processed

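The authors deposited a log10 ratio for each spot of an array, a scale inferred from the numbers themselves. The sources used here do not state the numerator, image analysis, background treatment or normalization. Of 7684 rows, 1 had no numeric identifier and was dropped, and spots of 3 repeated identifiers were averaged to 1 value. The platform annotation names 6695 of the 7680 features, and loci follow the current gene table (R64 assembly). Values were converted to log2, centred on array medians and fitted with limma 3.58.1 (R 4.3.3, lmFit and eBayes) on features with at least 4 values and 2 per channel assignment. The fit held a term for the labelled channel and a constant for the columns as deposited, with Benjamini-Hochberg adjustment over all features, two-sided, at a threshold of 0.05. The fit was tested on simulated data. Whole-number ratios were sought with a product under 10000000 and a tolerance of 6e-10 (log10). Named genes are the members, the 5 most alike and 2 most opposed features of each member feature, and of each pathway list the 2 smallest p in each reading, plus any that passed and PAB1. TRP1 and URA3 are named for their likeness to YRA1. MEX67, STO1, XRN1 and the other strain markers were named outside this rule, after their values were seen. Lists of 8 marker genes of the strains and of 3 genes each for a and alpha cells were also fitted. The members and lists were chosen with earlier results of these data known. Alternatives changed centring, scaling, filters, arrays, slide position, day and terms.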

Additional observations from a re-analysis of the deposited data

How the results depend on the processing

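No paired analysis was possible because the 6 arrays form 1 group and no second group shares its replicate numbers; each array itself pairs yra1-1 with wild type. YRA1 had a positive shift as deposited under all 16 alternatives and a negative one when turned under all 16, with values of 1.27 to 1.92 and −1.50 to −0.82 when each array was left out. Its smallest shifts were 0.67 as deposited, without centring (limma adjusted p = 0.708), and −0.77 when turned, with array weights or with array 1 turned over. It newly passed in 1 alternative per reading: as deposited without ratios of small whole numbers (1.96, limma), which removes its value on array 1, and when turned without centring (−3.34), where both YRA2 features also passed (−2.19 and −2.17). As deposited without those ratios, 170 of 6439 features passed in all. Without centring, YRA1 and both YRA2 features had the same SE. The signs of YRA2 were not stable. As deposited, without centring, its features 3706 and 4899 stood at −0.78 and −0.71. When turned they stood at 0.20 and 0.32 with array 1 turned over, and feature 4899 at 0.12 with the neighbourhood correction and at 0.34 without ratios of small whole numbers, where feature 3706 had too few values. Leaving out each array gave −0.13 to 0.25 (3706) and −0.14 to 0.46 (4899) as deposited, and −0.26 to 0.12 and −0.40 to 0.24 when turned. The YRA1 minus YRA2 difference ran from 0.84 to 1.78 as deposited and from −1.59 to −0.53 when turned without each array, where 5 arrays allow no exact p below 0.0625. With 6 arrays its lowest adjusted p was that as deposited with array 1 turned over (1.55, 6 of 6 positive, exact permutation p = 0.0313, adjusted 0.0625). That is the lowest adjusted p that 6 arrays and both readings allow, so this test could not pass in any setting. The number of features passing in limma was unstable: as deposited it was 127 in the reported fit, 2 without centring, 3 with the neighbourhood correction, 30 without repeated values, 257 with the day as a block, 676 with array weights, 2 with array 1 turned over and 0 (without array 4 or 6) to 214 (without array 5) when each array was left out. When turned it was 1 in the reported fit, 4887 without centring, 2 with scaling, 0 on features with all values, 0 with the neighbourhood correction, 0 without repeated values, 191 with array weights and 0 (without array 4, 5 or 6) to 4 (without array 3) when each array was left out. The causes were not tested. Of the 5 genes most alike to YRA1, 2 remained by Pearson correlation and 0 after the neighbourhood correction. For YRA2, 4 remained by Pearson correlation at each feature, and 0 (3706) and 1 (4899) after the correction.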

Other observations

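Of the 6 Yra1 pathway genes with 2 features, 5 had features on opposite sides of 0 as deposited: MLP1 (−1.12 and 0.97), MTR2 (−0.68 and 0.21), MFT1 (0.40 and −0.17), STO1 (0.35 and −0.05) and XRN1 (0.14 and −0.14). Both features of NAB2 were negative (−0.97 and −0.29). STE3, the a-factor receptor gene of alpha cells, picked for its disagreement, gave 1.47 and −0.53. When turned, MLP1 (0.20 and 0.51), MFT1 (−0.52 and −0.05) and XRN1 (0.26 and 0.27) had both features on the same side. The turned features of MTR2, STO1 and NAB2 lay on opposite sides. No share over all genes with 2 features is given here, so the count is not a result about these genes. The markers of a cells (MFA1, MFA2 and STE2, 3 features) and of alpha cells (5 features) and the 8 strain marker genes gave 0 passes in limma in both readings, against 1.65% of all features as deposited and 0.013% when turned, which says little of so few features. An unadjusted p under 0.05 was seen as deposited for 0, 1 and 2 features of these lists, against 13.5% of all features, and when turned for 0, 0 and 1, against 13%. Beside YRA1 by identifier, SAC7 and NCB2 held the same value to 9 decimals on 2 arrays, and the neighbour TOM1, which encodes a ubiquitin ligase that acts on Yra1, shared a value with another feature on 4 arrays. These neighbours were likewise picked for their repeats. No value of YRA1 or YRA2 itself was repeated.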
